A study of Mus musculus with 24 samples.

Results

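CD8 T cells were set against CD4 T cells of the same untreated wild-type mice, across all genes. The members were chosen by label: the 3 CD8 and 3 CD4 libraries of mice with the genotype Atmwt/wt (wild type, WT) and no transplant, 6 of the 24 libraries of the series. The WT control libraries came from 3 pools of 3, 2 and 2 C57BL/6N mice, 7 mice in all, and each pool gave 1 CD8 and 1 CD4 library. The other groups, used here only for reference, were Atm-/- (KO) mice without a transplant, and Atmwt/wt and Atm-/- mice carrying a transplanted B-cell lymphoma, with 6 libraries each. Atm codes for a kinase activated by breaks in DNA. Splenic T cells were enriched with a commercial kit, and polyadenylated RNA was counted from 3′ tags. The labels do not say by which means CD4 cells were parted from CD8 cells. Neither age nor sex of the mice is given, and pooling hides differences between the mice of a pool.

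CD4 and CD8 T cells arise in the thymus from a common precursor that carries both co-receptors. CD8 binds MHC class I and marks the killer lineage, whose master regulator is Runx3. CD4 binds MHC class II and marks helper and regulatory cells, and Zbtb7b (ThPOK) commits precursors to that lineage and opposes Runx3. Resting CD8 cells of the spleen are mostly naive, with a memory fraction that holds transcripts of granule proteins and lectin receptors. CD4 cells of the spleen include regulatory T cells, which depend on Foxp3, and follicular helper cells.

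Values are in CPM (each count relative to the total of its library, on 1 common scale), given for pools 1, 2 and 3 in that order, and fold changes are log2 of CD8 over CD4 with their standard error after ±. Rose and fell are used of genes that were higher or lower in CD8 libraries with an edgeR quasi-likelihood adjusted p below 0.05, from a model fitted to all 24 libraries with the mouse pool as a block. Each group had n = 3 libraries. The 6 libraries held 6470482 to 9103694 counts, and 15263 to 16422 genes had at least 1 count.

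The co-receptor genes followed the labels in all 6 libraries. Cd8a, at chr6:71373427-71379173 (plus strand) of GRCm38, had 556, 513 and 461 CPM in CD8 libraries, against 6.52, 6.35 and 12.7 CPM in CD4 libraries. Its neighbour Cd8b1, at chr6:71322788-71337494 (plus strand) and 35932 bases away, had 698, 659.8 and 531 CPM in CD8 libraries, against 24.5, 23.7 and 28.9 CPM in CD4 libraries. Both chains were above their CD4 level in every pool, by 5.95 ± 0.49 for Cd8a and 4.61 ± 0.26 for Cd8b1. Cd4, at chr6:124864692-124888221 (minus strand), had 1.51, 4.16 and 7.33 CPM in CD8 libraries, against 135, 127 and 117 CPM in CD4 libraries, a fold change of -4.89 ± 0.47. Zbtb7b, at chr3:89377644-89394776 (minus strand), had 2.72, 8.08 and 14.5 CPM in CD8 libraries, against 101, 95.2 and 97.3 CPM in CD4 libraries, a fold change of -3.64 ± 0.35. For each of these 4 genes the library with the most transcripts of the opposite lineage came from pool 3: 7.33 CPM of Cd4 in CD8 and 12.7 CPM of Cd8a in CD4 cells. The Atm transcript was at 219, 203 and 192 CPM in CD8 libraries, against 190.5, 189 and 153 CPM in CD4 libraries.

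**Figure D1:**
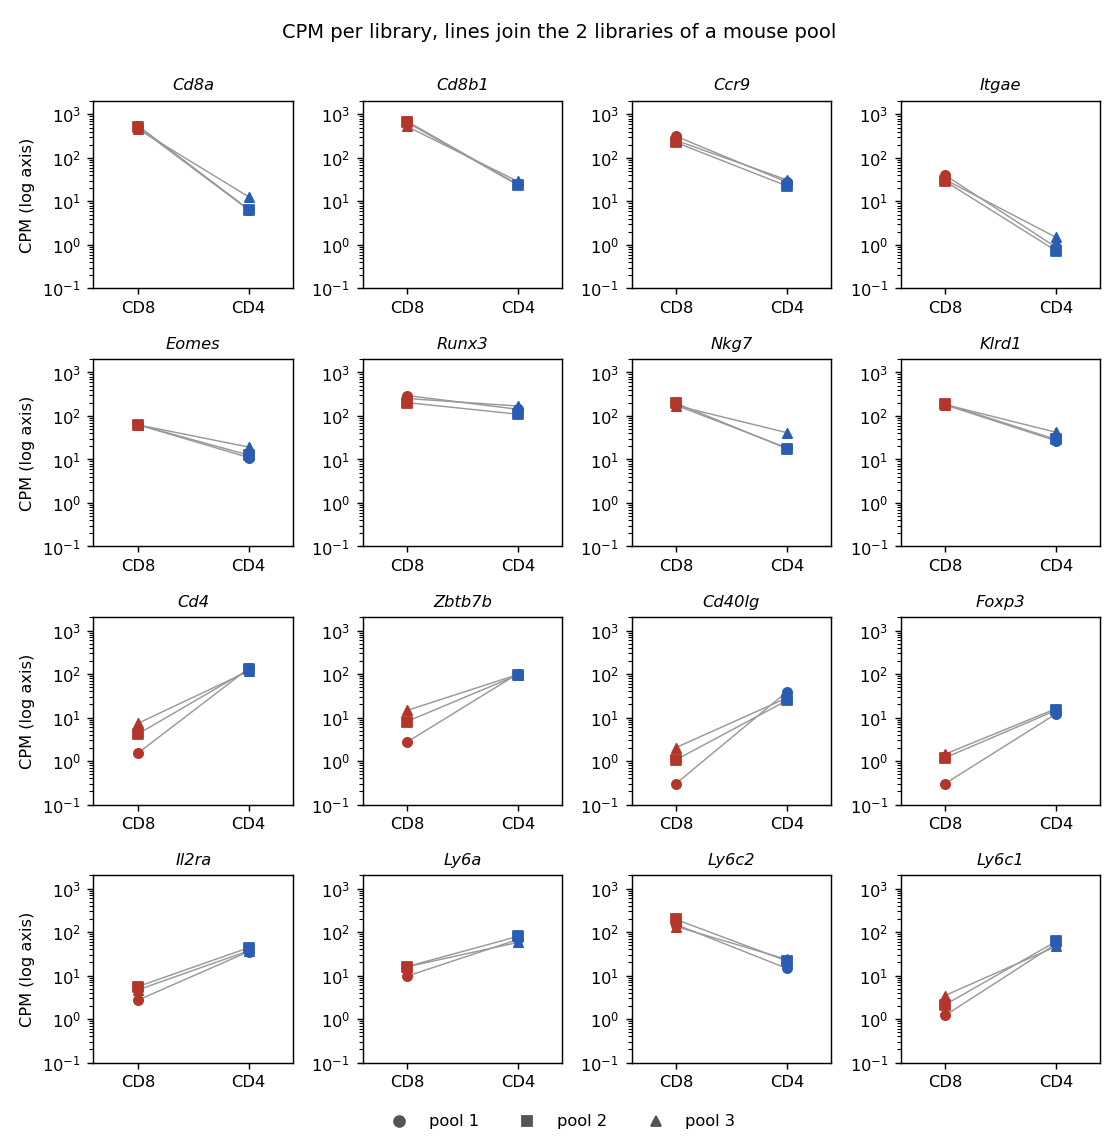
CPM of 16 genes in each library (log axis), CD8 left of CD4, with a symbol for each mouse pool and a line joining the libraries of a pool. Cd8a lay between 461 and 556 CPM in CD8 libraries and between 6.35 and 12.7 CPM in CD4 libraries, and within each panel the 3 lines run in the same direction.

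Transcripts of other cells were present and followed the pool more than the co-receptor. The 21 pan-T genes summed to 7087, 6264 and 6041 CPM in CD8 libraries, against 7740.0, 7092 and 6527 CPM in CD4 libraries, and 2 of them (Cd5 and Cd28) fell. The 23 B cell genes summed to 379, 672 and 1307 CPM in CD8 libraries and 377, 606 and 1281 CPM in CD4 libraries, so that pool 3 was highest in both. The 14 red cell genes summed to 711, 453 and 4026 CPM in CD8 libraries and 839, 486 and 9154 CPM in CD4 libraries, also highest in pool 3. CD8 library 1 stood apart with the lowest monocyte and macrophage sum, 586, 2136 and 1385 CPM in CD8 libraries against 1208, 1988 and 1442 CPM in CD4 libraries. None of these 25 genes, none of 16 neutrophil genes and none of 14 red cell genes changed, and 1 of 13 platelet genes fell (Itgb3). The most abundant genes of the lists without a call were Ctss (-0.27), Vcam1 (-0.43) and Lyz2 (-0.58) for monocytes and macrophages, Cxcr2 (0.16), S100a8 (-0.69) and S100a9 (-0.68) for neutrophils, and the globin genes Hbb-bs (-0.58), Hba-a2 (-0.50) and Hbb-bt (-0.57) for red cells, each given as a log2 fold change. Of 20 MHC class II and dendritic cell genes 2 rose, Ccr9 and H2-Oa, and of 23 B cell genes 1 rose, Cd72. Ccr9 also stands in the CD8 lineage list below. With Ccr9 included, the 20 genes summed to 506, 688 and 984 CPM in CD8 libraries and 219, 357 and 746 CPM in CD4 libraries. H2-Oa (1.51 ± 0.30) and Cd72 (1.43 ± 0.29) did not pass without pool 1 or pool 2. No tested gene of these lists was at 0 in all 6 libraries, and the part of other cells in the results was not tested. The summed Y-linked genes Ddx3y, Eif2s3y and Uty were at 56.9, 188 and 118 CPM in CD8 libraries, against 68.5, 199.6 and 121 CPM in CD4 libraries, so that libraries of the same pool had like levels.

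**Figure D2:**
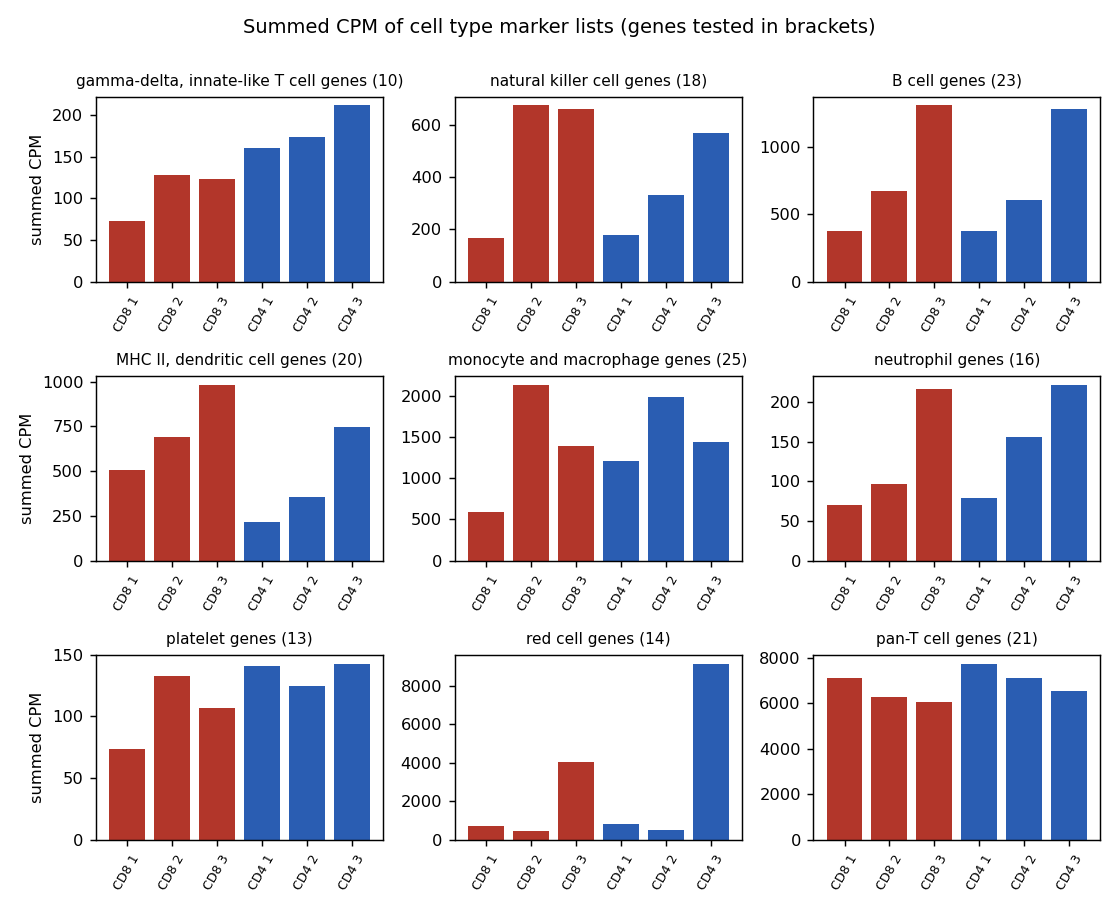
Summed CPM of 9 cell type marker lists in each library, CD8 libraries in red and left of CD4 libraries in blue, with axes from 0. The MHC class II and dendritic cell sum includes Ccr9, which is also listed as a CD8 lineage gene. Pool 3 had the highest red cell sum of both cell types (4026 CPM in CD8 and 9154 CPM in CD4), and CD8 library 1 the lowest monocyte and macrophage sum (586 CPM).

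Across the transcriptome, 637 of 13232 tested genes were called, of which 342 rose (2.58% of all genes tested) and the rest fell (2.23%). The median fold change of all genes was -0.0021. Of the 637 genes called, 635 moved in the same direction in 3 of 3 pools, against 5186 of all 13232 genes tested. The 3 CD8 and 3 CD4 libraries did not overlap for 597 of the 637, against 18.3% of all genes tested. The 637 were called from these same libraries, so neither count is separate support for the calls. Most changes were moderate: 320 of the 637 reached 2-fold, 117 reached 4-fold and 49 reached 8-fold, of which 24 were higher and 25 lower in CD8. The count rests on all pools. It was 280 without pool 1, 293 without pool 2 and 385 without pool 3.

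**Figure D3:**
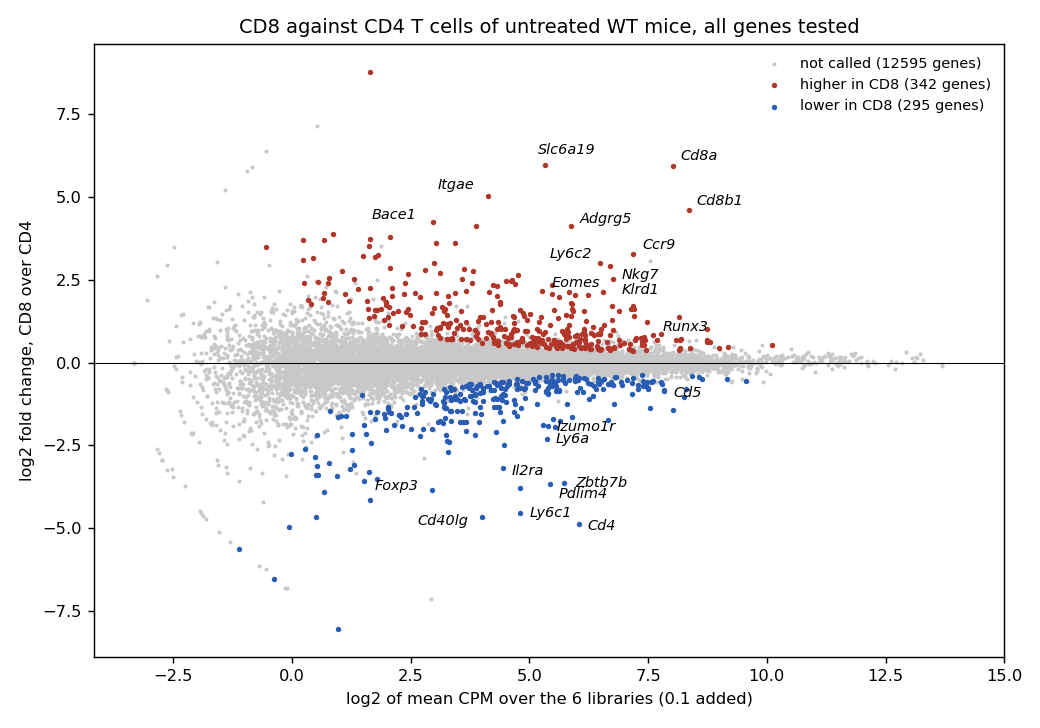
Log2 fold change of CD8 over CD4 against the log2 of mean CPM for the 13232 genes tested in untreated WT mice, with the 342 genes that rose in red and those that fell in blue. Of the labelled genes, Slc6a19, Cd8a, Itgae and Cd8b1 lie highest and Cd4, Cd40lg and Ly6c1 lowest, and unlabelled called genes lie farther out, such as Fam177a at 8.79 and Rpl30-ps9 at -8.05.

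Genes of the CD8 lineage rose nearly throughout. Of 16 listed and tested, 14 rose, with a median of 2.27 (11, 12 and 12 without pool 1, 2 or 3), and Klrk1 (0.59) and Tnfsf8 (0.22) did not pass. Ccr9, the receptor for the gut chemokine CCL25, had 314, 226 and 253 CPM in CD8 libraries, against 27.7, 22.6 and 31.2 CPM in CD4 libraries, and its fold change of 3.28 ± 0.14 (edgeR adjusted p = 5.66e-09) had the smallest standard error of the list. No CD4 library came near the CD8 level of Ccr9. Itgae, the alpha chain of the CD103 integrin that binds E-cadherin, had 40.2, 29.1 and 31.7 CPM in CD8 libraries, against 0.884, 0.733 and 1.49 CPM in CD4 libraries (5.04 ± 0.36). Eomes, a T-box factor of memory CD8 cells, had 63.1, 63 and 62.6 CPM in CD8 libraries, against 11.1, 12.6 and 19.3 CPM in CD4 libraries (2.17 ± 0.19), nearly the same level in all CD8 libraries. Crtam, a receptor of activated class I restricted cells, averaged 38 ± 5.35 CPM in CD8 and 6.95 ± 1.49 CPM in CD4 libraries (2.46 ± 0.25). In bulk RNA fewer cells of a type and less RNA per cell cannot be told apart.

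Genes of the CD4 lineage and of help fell. Of 15 listed, 14 were tested and 11 fell, with none higher and a median of -1.84. The count was 7, 6 and 8 without pool 1, 2 or 3. Cd40lg, the ligand through which helper cells activate B cells, had 0.302, 1.07 and 2.04 CPM in CD8 libraries, against 39.2, 24.7 and 28.3 CPM in CD4 libraries (-4.68 ± 0.48). Cd28, the main costimulatory receptor of T cells, was lower by a smaller amount, with 97.1 ± 11.3 CPM in CD8 and 187 ± 12.5 CPM in CD4 libraries (-0.95 ± 0.17). Itgb3, an integrin beta chain also found on platelets, had 16.5, 15.3 and 18 CPM in CD8 libraries, against 66.1, 61.2 and 57.3 CPM in CD4 libraries (-1.89 ± 0.24), while the summed platelet genes, Itgb3 included, were at 73.9, 133 and 106 CPM in CD8 and 141, 125 and 143 CPM in CD4 libraries. The members that did not pass were Trat1 (-1.93), Rora (-0.48) and St8sia1 (-0.47).

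Among 50 lineage transcription factors 6 rose and 8 fell, with a median of -0.10. The 6 that rose were Eomes, Runx3, Myb, Tbx21, Runx2 and Zbtb7a (3, 4 and 6 without pool 1, 2 or 3). Runx3, named here after its values were seen, lies at chr4:135120652-135177990 (plus strand) and had 294.9, 203 and 252 CPM in CD8 libraries, against 142, 109.9 and 169 CPM in CD4 libraries. Its fold change was 0.84 ± 0.14, smaller than that of Zbtb7b. The libraries did not overlap, and Runx3 lost the call without pool 1, as did Myb (0.59 ± 0.11). Tbx21 (T-bet), also named after its values were seen, averaged 129.7 ± 30.9 CPM in CD8 and 60.5 ± 21.5 CPM in CD4 libraries (1.12 ± 0.20). The 8 that fell were Zbtb7b, Ikzf4, Tox2, Foxp3, Runx1, Maf, Prdm1 and Gata3, and Gata3 (-0.69 ± 0.14) lost the call whichever pool was left out. Runx1, the family member that restrains Cd4 before lineage choice, had 31, 29.7 and 43 CPM in CD8 libraries, against 68.7, 52.7 and 60.8 CPM in CD4 libraries (-0.82 ± 0.13), so Runx1 and Runx3 moved in opposite directions. Tcf7 and Lef1, factors of naive T cells, were at -0.07 and 0.10 and did not pass.

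The distal promoter of Runx3 is shown because Runx3 rose and RUNX proteins bind the hexamer TGTGGT. The sequence is from RefSeq on GRCm38.p6, chr4:135120395-135120694 on the plus strand. Capitals mark TGTGGT or its reverse complement ACCACA, which occurs 2 times with 2 bases between the copies.
Runx3: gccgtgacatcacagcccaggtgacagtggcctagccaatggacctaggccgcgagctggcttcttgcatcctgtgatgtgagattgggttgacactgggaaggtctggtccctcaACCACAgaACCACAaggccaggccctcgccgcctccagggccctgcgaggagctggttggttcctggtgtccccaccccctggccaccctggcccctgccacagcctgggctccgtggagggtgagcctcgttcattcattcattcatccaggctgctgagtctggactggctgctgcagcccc
The second Runx3 promoter in the table had no match, and 16.8% of all 32851 promoters of this length held at least 1 on either strand. Of the promoters of the other lineage genes in the table, Cd8a, Eomes, Ccr9 and Foxp3 had none, Nkg7 had 1, and Zbtb7b had 1 in 1 of its 2 promoters. Il2ra, Pdlim4 and Slc6a19, also looked up, had none. A match is a run of letters and not a measured binding site.

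Part of the cytotoxic program was higher and part was not. Of 22 tested granule genes (23 listed) 6 rose and 1 fell, with a median of 0.22 (5, 5 and 6 without pool 1, 2 or 3 for the rises). Nkg7, a granule membrane protein, had 177, 197 and 174 CPM in CD8 libraries, against 18.5, 17.7 and 41.3 CPM in CD4 libraries (2.92 ± 0.26). Gzmm, a granzyme, had 16.8, 29.1 and 18.6 CPM in CD8 libraries, against 2.65, 2.2 and 4.19 CPM in CD4 libraries (2.83 ± 0.33). Ctsw and Cst7, a lysosomal protease and a protease inhibitor of killer cells, were at 2.37 ± 0.30 and 2.03 ± 0.20, and the protease inhibitor gene Serpinb6b at 1.01 ± 0.16. Prf1 (perforin), named after its values were seen, averaged 69.5 ± 2.91 CPM in CD8 and 37.7 ± 13.6 CPM in CD4 libraries (0.94 ± 0.23), and lost the call without pool 1 or pool 2. Gzma, the most abundant granzyme here, had 27.4, 196 and 183 CPM in CD8 libraries, against 38.1, 91.3 and 169 CPM in CD4 libraries, with overlapping groups and a fold change of 0.28 ± 0.25 that did not pass, and Gzmb (1.09) and Gzmk (1.20) did not pass either. Fasl, the death ligand, went the other way with 2.87, 6.65 and 4.44 CPM in CD8 libraries, against 8.73, 10.4 and 10 CPM in CD4 libraries (-1.10 ± 0.20), and did not pass without pool 1.

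Of 30 tested killer lectin receptors and adaptors (35 listed) 6 rose and none fell, with a median of 0.59 (5, 3 and 7 without pool 1, 2 or 3). The 6 include Crtam, already given with the CD8 lineage list. Klrd1 (CD94), the partner chain of NKG2 receptors, had 180.4, 188 and 183 CPM in CD8 libraries, against 26.9, 28.8 and 42.2 CPM in CD4 libraries (2.52 ± 0.27). Cd160, a receptor for HVEM, had 17.5, 10.9 and 17.2 CPM in CD8 libraries, against 4.2, 4.4 and 4.19 CPM in CD4 libraries (1.80 ± 0.25). Klra1, Klra3 and Klra7, Ly49 receptors of MHC class I, were at 1.69 ± 0.29, 1.73 ± 0.38 and 1.44 ± 0.34, and all 3 lost the call without pool 2, as did Klra3 without pool 3 and Klra7 without pool 1. The Klra genes are near copies of each other, so reads may be shared among them. Natural killer cell transcripts moved with the library: the 18 listed genes, Eomes included, summed to 168, 675 and 659.9 CPM in CD8 libraries and 180.4, 331 and 572 CPM in CD4 libraries. Of them 2 rose (Eomes and Klra7), none fell and none was at 0 in all 6 libraries. Klrb1c (NK1.1) had 11.2, 70.8 and 59.3 CPM in CD8 libraries, against 21.9, 37.8 and 69.1 CPM in CD4 libraries. The part of natural killer cells in these rises was not tested.

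Regulatory T cell genes fell. Of 22 tested (24 listed) 13 fell and none rose, with a median of -1.04 (8, 8 and 12 without pool 1, 2 or 3). Foxp3, the lineage factor, had 0.302, 1.19 and 1.44 CPM in CD8 libraries, against 12.2, 14.7 and 16 CPM in CD4 libraries (-3.85 ± 0.53). Il2ra (CD25), the high-affinity interleukin receptor chain, had 2.72, 5.59 and 4.68 CPM in CD8 libraries, against 35.7, 43.7 and 37.2 CPM in CD4 libraries (-3.18 ± 0.19). Ctla4, an inhibitory receptor, had 3.18, 5.94 and 11.8 CPM in CD8 libraries, against 31.5, 35.2 and 43.8 CPM in CD4 libraries (-2.49 ± 0.32), with the highest value of each cell type in pool 3. Nrp1 (-2.18 ± 0.21), Ikzf4 (-1.76 ± 0.22), Gpr83 (-1.78 ± 0.26) and Izumo1r (-1.90 ± 0.14) fell with no overlap between libraries. Itgb8, which activates latent TGF-beta, had a listed value of 0 in CD8 library 1 and lost the call whichever pool was left out.

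Of 18 tested follicular helper genes (20 listed) 9 fell and none rose, with a median of -0.74 (6, 5 and 7 without pool 1, 2 or 3). Tox2 had 0.907, 4.4 and 4.2 CPM in CD8 libraries, against 11.7, 20.8 and 15.2 CPM in CD4 libraries (-2.37 ± 0.30). Maf, which drives interleukin expression in helper cells, had 34.8, 83.5 and 85.4 CPM in CD8 libraries, against 132, 149 and 178 CPM in CD4 libraries (-1.26 ± 0.20), with the lowest value in CD8 library 1. The receptors Btla (-0.94 ± 0.16), Icos (-0.77 ± 0.14, not without pool 2) and Slamf1 (-0.81 ± 0.15, not without pool 3) were lower by smaller amounts. Cxcr5 (-0.18) and Bcl6 (-0.25), the defining receptor and factor of follicular helper cells, did not pass.

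Costimulatory and inhibitory receptors were mostly lower where they differed. Of 34 tested (38 listed) 12 fell and 2 rose, with a median of -0.20. The falls were 8, 7 and 11 without pool 1, 2 or 3 and the rises 1 without each pool. Of these 12, 6 also stand in the CD4 lineage list (Cd40lg, Cd28, Icos, Ctla4, Tnfrsf4 and Tnfsf11). Tnfrsf25 (DR3), a death domain receptor, had 17.2, 12.4 and 10.2 CPM in CD8 libraries, against 49.2, 32.6 and 38.1 CPM in CD4 libraries (-1.60 ± 0.20). Cd200r1, an inhibitory receptor for CD200, had 1.51, 2.61 and 2.64 CPM in CD8 libraries, against 11.7, 10.8 and 9.12 CPM in CD4 libraries (-2.21 ± 0.31). Lag3 (-0.25), Havcr2 (0.18) and Cd27 (-0.03) did not pass.

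Among 41 cytokine receptors and signal components 4 rose (2, 1 and 4 without pool 1, 2 or 3) and 4 fell, with a median of 0.05. The chains of the interleukin-2 receptor moved apart: Il2rb (CD122), shared with the interleukin-15 receptor, had 546, 578 and 589 CPM in CD8 libraries, against 245, 253 and 370.1 CPM in CD4 libraries (1.01 ± 0.16), while Il2ra fell and Il2rg was at 0.05 and did not pass. Cish, a feedback inhibitor of cytokine signalling, had 12.4, 5.59 and 12.4 CPM in CD8 libraries, against 30.3, 27.7 and 41.4 CPM in CD4 libraries (-1.76 ± 0.18), and Tgfbr3, a TGF-beta co-receptor, had 14.5, 14 and 18.7 CPM in CD8 libraries, against 40.2, 38.5 and 42.6 CPM in CD4 libraries (-1.37 ± 0.17). Il18rap (1.01 ± 0.19) lost the call without pool 2 and Il10rb (0.76 ± 0.16) without pool 1 or pool 2. Il7r, the survival receptor of naive cells, had 517, 571 and 501 CPM in CD8 libraries, against 521, 544 and 473 CPM in CD4 libraries, with no difference detected (0.05 ± 0.18). Of 19 tested helper cytokines and receptors (28 listed) only Il18rap rose and only Lta (-0.79 ± 0.20) fell. Over all genes tested 2.58% rose and 2.23% fell. Lta lost the call whichever pool was left out. Csf2, Il3, Il5 and Il17a had no count in the 6 libraries.

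Of 25 tested homing receptors (27 listed) 5 rose (2, 2 and 5 without pool 1, 2 or 3) and 1 fell, with a median of 0.06. Besides Ccr9, Cxcr6, the receptor for CXCL16, had 239, 245 and 152 CPM in CD8 libraries, against 81.1, 58.2 and 65.5 CPM in CD4 libraries (1.62 ± 0.24). Cxcr4 (0.70 ± 0.13) and Selplg (0.62 ± 0.12), the selectin ligand PSGL-1, lost the call without pool 1 or pool 2. Cxcr4 overlapped between groups, with 169.8, 203 and 369.7 CPM in CD8 libraries, against 92.5, 106 and 302 CPM in CD4 libraries, yet was higher in CD8 in each pool. Gpr183, an oxysterol receptor that places cells at the follicle border, fell (-0.69 ± 0.15), though not without pool 1 or pool 3. Receptors that guide naive cells through lymph nodes did not pass: Ccr7 -0.13 and S1pr1 0.07. Of 18 tested integrins (20 listed) Itgae rose and Itgb3, Itga6 (-0.77 ± 0.15, not without pool 3) and Itgb8 fell, and Itgb7, the partner chain of Itgae, was at 0.01.

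Few genes of the T cell receptor machinery passed the test. Of 56 tested genes of the receptor complex and its proximal signalling (57 listed) 3 rose and 1 fell, with a median of -0.01. The number of falls depended on the fit. It was 8 in the 6 WT control libraries alone with the block, 7 by limma voom and 6 in the 12 untreated libraries. No rise passed without the block over all 24 libraries, while 3 passed in the 6 WT control libraries alone without it. The libraries did not overlap for 17 of the 56 genes, against 18.3% of all genes tested. Cd5, a negative regulator whose level follows the strength of receptor signals, had 179, 162 and 155 CPM in CD8 libraries, against 341, 265 and 275 CPM in CD4 libraries (-0.82 ± 0.14), and passed without each pool. The 3 rises, Ptpn22, Sla2 and Spry2, came to 0, 0 and 1 without pool 1, 2 or 3. Cd3e (0.07), Lck (0.07) and Zap70 (0.09) did not pass. Among 32 immediate early genes Ier3 and Fosl2 (0.75 ± 0.19, not without pool 1 or pool 2) rose and Dusp1 fell. Dusp1, a phosphatase induced by stress, varied more by pool than by cell type, with 27.8, 11.4 and 65.7 CPM in CD8 libraries, against 68.5, 20.7 and 90.1 CPM in CD4 libraries (-0.86 ± 0.22, not without pool 1 or pool 2). Ier3, an early response gene, had 14.5, 12.8 and 24.5 CPM in CD8 libraries, against 3.76, 2.08 and 6.58 CPM in CD4 libraries (2.11 ± 0.25). Of 40 cell cycle genes Ccne1 (1.44 ± 0.33) rose and Stmn1 (-0.56 ± 0.12) fell, both losing the call whichever pool was left out, and Mki67 was at -0.27. Over all genes tested 2.58% rose and 2.23% fell, and the cell cycle counts are near those shares. Of 33 tested glycolysis and lipid genes (35 listed) none rose and 2 fell. One of them was Sqle (-1.09 ± 0.29), an enzyme of cholesterol synthesis, which lost the call whichever pool was left out.

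**Figure D4:**
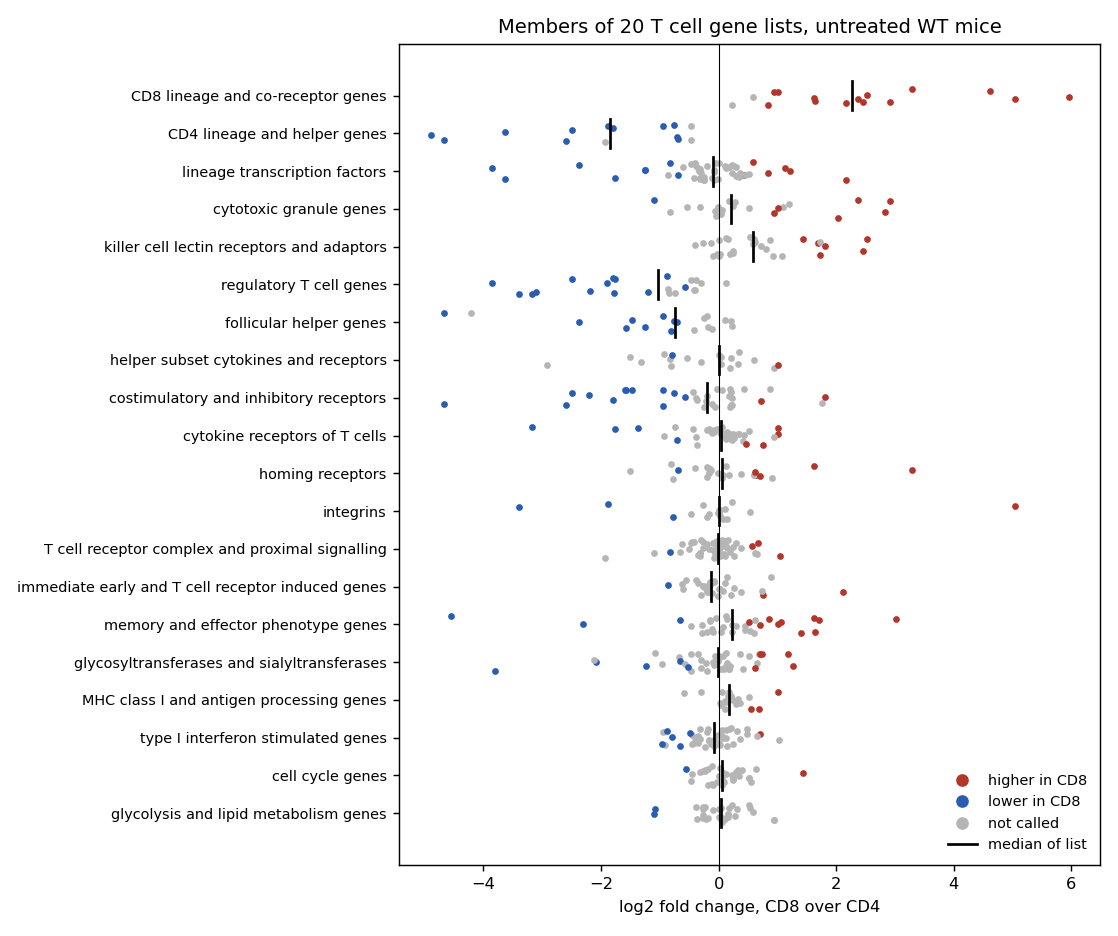
Log2 fold change of CD8 over CD4 for each tested member of 20 T cell gene lists, with genes that rose in red, genes that fell in blue, genes not called in grey and the list median as a black bar. The medians of the CD8 lineage (2.27) and CD4 lineage lists (-1.84) lie farthest from 0, and those of T cell receptor signalling (-0.01) and the cytokine receptors (0.05) lie near 0.

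Surface proteins of the Ly6 family moved in opposite directions. Ly6c2, at chr15:75108158-75111970 (minus strand), had 149, 195 and 134 CPM in CD8 libraries, against 14.6, 21.6 and 23.5 CPM in CD4 libraries (3.01 ± 0.25). Its paralog Ly6c1, at chr15:75044018-75048830 (minus strand), had 1.21, 2.14 and 3.48 CPM in CD8 libraries, against 53.6, 60.7 and 46.6 CPM in CD4 libraries (-4.54 ± 0.30). Together they encode the Ly6C antigen by which memory T cells are often sorted. Ly6a (Sca-1), at chr15:74994877-74998031 (minus strand), had 9.68, 16 and 15.9 CPM in CD8 libraries, against 67.6, 79.4 and 58 CPM in CD4 libraries (-2.31 ± 0.16). The last 300 bases of a pair of GENCODE transcripts, 1 of Ly6c1 and 1 of Ly6c2, are 98.3% identical over 293 aligned bases and share a run of 124 bases, so 3′ tags may be split between the paralogs and their levels are uncertain. The 2 promoters are shown for that pair of opposite changes. They are from RefSeq on GRCm38.p6, both on the minus strand, chr15:75048788-75049087 for Ly6c1 and chr15:75111922-75112221 for Ly6c2, and capitals mark bases that differ from the other or have no partner in the alignment.
Ly6c1: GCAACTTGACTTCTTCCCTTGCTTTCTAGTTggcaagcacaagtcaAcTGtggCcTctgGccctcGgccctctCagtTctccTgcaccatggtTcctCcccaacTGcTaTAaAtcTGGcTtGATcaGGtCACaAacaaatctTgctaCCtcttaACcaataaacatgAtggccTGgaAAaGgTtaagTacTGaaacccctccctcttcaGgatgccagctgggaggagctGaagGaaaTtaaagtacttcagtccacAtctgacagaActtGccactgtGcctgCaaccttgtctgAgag
Ly6c2: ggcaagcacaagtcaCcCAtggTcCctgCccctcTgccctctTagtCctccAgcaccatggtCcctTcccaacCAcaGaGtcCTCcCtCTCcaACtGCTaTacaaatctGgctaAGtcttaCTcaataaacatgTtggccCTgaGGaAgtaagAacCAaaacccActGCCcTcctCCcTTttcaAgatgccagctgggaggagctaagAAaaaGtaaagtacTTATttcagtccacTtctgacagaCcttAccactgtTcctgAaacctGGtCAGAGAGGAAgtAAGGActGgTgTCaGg
The promoters were identical at 213 of 265 aligned bases (80.4%). The Ly6c2 promoter held 1 RUNX hexamer, ACCACA from base 72 of the printed sequence, and the Ly6c1 promoter held none. Such a match occurs in 16.8% of all promoters and is not a measured binding site. Whether it bears on the opposite changes was not tested.

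The Ly6 genes belong to a list of 34 memory and effector genes, of which 10 rose (7, 5 and 5 without pool 1, 2 or 3) and 3 fell, with a median of 0.23. Cd7, an immunoglobulin superfamily protein, had 204, 236 and 199 CPM in CD8 libraries, against 91.5, 68.7 and 81.8 CPM in CD4 libraries (1.41 ± 0.13). Plac8 had 159.7, 162 and 163 CPM in CD8 libraries, against 34, 42.8 and 81.5 CPM in CD4 libraries (1.71 ± 0.27), with its highest CD4 value in pool 3. Cd44, the memory marker, was at -0.15 and did not pass.

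Enzymes of glycan synthesis changed in both directions. Of 43 tested (47 listed) 5 rose (1, 1 and 4 without pool 1, 2 or 3) and 5 fell (3, 3 and 3 without pool 1, 2 or 3), with a median of -0.02. St8sia6, a sialyltransferase, had 2.27, 3.21 and 5.89 CPM in CD8 libraries, against 54.7, 46.3 and 54.4 CPM in CD4 libraries (-3.80 ± 0.34). St3gal2, another sialyltransferase, had 4.69, 9.39 and 8.29 CPM in CD8 libraries, against 37, 28.4 and 29.3 CPM in CD4 libraries (-2.08 ± 0.29). Chst15, a sulfotransferase, rose with 21.3, 21.2 and 20.7 CPM in CD8 libraries, against 6.96, 9.78 and 9.72 CPM in CD4 libraries (1.27 ± 0.18). Chst2 (-1.23 ± 0.22, not without pool 1), St3gal6 (0.74 ± 0.15) and B4galnt1 (0.62 ± 0.13) changed less, and St3gal6 and B4galnt1 lost the call without pool 1 or pool 2.

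Of 45 interferon-stimulated genes 1 rose and 5 fell (2, 2 and 3 without pool 1, 2 or 3), with a median of -0.08. Slfn5, of the Schlafen family, had 174, 173 and 136 CPM in CD8 libraries, against 319, 321.4 and 245 CPM in CD4 libraries (-0.87 ± 0.10), and Ifi27l2a had 75.9, 69.3 and 59.5 CPM in CD8 libraries, against 134, 141 and 85.4 CPM in CD4 libraries (-0.79 ± 0.11). Oas3 (0.70 ± 0.17), which makes a messenger of viral RNA sensing, was the one that rose. Oas3, the RNA sensor Ifih1 (-0.66 ± 0.15) and Ifi44 (-0.97 ± 0.26) lost the call whichever pool was left out, and Slfn2 (-0.48 ± 0.13) without pool 1 or pool 2. Of 22 tested MHC class I and antigen processing genes (23 listed) 3 rose (1, 1 and 1 without pool 1, 2 or 3) and none fell, with a median of 0.18. H2-Q6, a nonclassical class I gene, had 102, 119 and 141 CPM in CD8 libraries, against 42, 66.5 and 73.1 CPM in CD4 libraries (1.02 ± 0.12), but its close paralogs, H2-Q7 (0.55 ± 0.13) among them, may share its reads. H2-Q7 and Tapbpl (0.69 ± 0.17), a peptide editor of class I, lost the call whichever pool was left out. H2-K1 (0.06) and B2m (0.17) did not pass.

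Of 10 tested gamma-delta and innate-like genes (20 listed, 15 in the table) 2 rose (1, 1 and 1 without pool 1, 2 or 3) and 2 fell. Cd163l1, a scavenger receptor of gamma-delta cells, had 6.35, 4.28 and 4.08 CPM in CD8 libraries, against 0.774, 0.611 and 0.149 CPM in CD4 libraries (3.21 ± 0.47), and 5830411N06Rik (2.09 ± 0.47) rose but lost the call whichever pool was left out. Trdc, the delta constant region, had 4.99, 7.72 and 7.57 CPM in CD8 libraries, against 5.86, 6.23 and 8.37 CPM in CD4 libraries (-0.02 ± 0.26), with overlapping groups. Zbtb16 (PLZF), the factor of innate-like T cells, had 0.756, 1.07 and 1.08 CPM in CD8 libraries, against 3.98, 1.34 and 4.34 CPM in CD4 libraries (-1.60 ± 0.42, not without pool 1 or pool 3).

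Several of the largest changes lay outside these lists. Slc6a19, a neutral amino acid transporter known from gut and kidney, at chr13:73679745-73704865 (minus strand), had 81.2, 77.2 and 79.6 CPM in CD8 libraries, against 1.66, 0.733 and 1.35 CPM in CD4 libraries (5.98 ± 0.24, edgeR adjusted p = 4.42e-09), a rise close to that of Cd8a. Adgrg5, an adhesion G protein-coupled receptor, had 125, 101 and 104 CPM in CD8 libraries, against 5.53, 4.28 and 10 CPM in CD4 libraries (4.11 ± 0.27). Bace1, the beta-secretase, had 18.1, 13.9 and 12.1 CPM in CD8 libraries, against 0.553, 0.733 and 1.05 CPM in CD4 libraries (4.24 ± 0.38). Lcn4, a lipocalin, had 23.6, 33.2 and 25.8 CPM in CD8 libraries, against 1.11, 1.59 and 2.09 CPM in CD4 libraries (4.12 ± 0.36). Each of these 4 genes lay above its CD4 values in every library, which the rule that named them required. Eng (endoglin), a TGF-beta co-receptor, had 16.9, 14 and 13.6 CPM in CD8 libraries, against 1.55, 0.855 and 1.2 CPM in CD4 libraries (3.62 ± 0.34), and Bend4 had 18.1, 19.1 and 21.7 CPM in CD8 libraries, against 1.77, 1.1 and 1.94 CPM in CD4 libraries (3.62 ± 0.24). Fam71b (3.80), the kinase gene Dyrk4 (3.73), Plekha6 (3.52), the glutamate receptor gene Gria3 (3.25) and Haao (3.19), an enzyme of kynurenine breakdown, rose over CD4 means under 1 CPM.

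Among the falls, Pdlim4, a PDZ and LIM domain protein, had 5.14, 7.01 and 6.73 CPM in CD8 libraries, against 78.9, 86.4 and 74.3 CPM in CD4 libraries (-3.66 ± 0.20, edgeR adjusted p = 8.87e-08). Sp6, a zinc finger factor, had 1.51, 2.61 and 3.24 CPM in CD8 libraries, against 18.1, 10 and 22.3 CPM in CD4 libraries (-2.71 ± 0.28), and Arhgap29, a GTPase activating protein, had 3.63, 2.61 and 2.76 CPM in CD8 libraries, against 23.8, 16.7 and 9.42 CPM in CD4 libraries (-2.40 ± 0.30). Penk, which encodes the opioid precursor proenkephalin, had 0.151, 0.713 and 0.36 CPM in CD8 libraries, against 4.53, 6.23 and 4.48 CPM in CD4 libraries (-3.58 ± 0.46). These 4 genes stayed below every CD4 value in all CD8 libraries, which the rule that named them required. Igsf23 (-3.51), the titin gene Ttn (-3.29) and Ptgir (-2.44), the prostacyclin receptor, were also lower, Ptgir not without pool 1.

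The same comparison in the other mice shares no library with this one, only the estimate of the spread. Of the 637 genes called, 612 had the same sign in KO control mice (96.1%), 632 in WT lymphoma mice (99.2%) and 591 in KO lymphoma mice (92.8%), where 63.9%, 67.1% and 61.2% of all genes tested had the same sign. In KO controls, where 8.96% of genes were called, 432 of the 637 were also called in that direction (67.8% of the WT calls and 36.4% of the KO calls). In WT lymphoma mice, with 3.45% called, it was 357 (56.0% of the WT control calls and 78.1% of that group's calls). In KO lymphoma mice, with 4.1% called, it was 289 (45.4% and 53.3%), and 1 gene was called in the opposite direction. In all 4 groups 231 genes were called with 1 sign. Slc6a19 was at 5.45 in KO control, 5.95 in WT lymphoma and 3.76 in KO lymphoma mice, Ccr9 at 2.26 in KO control, 3.43 in WT lymphoma and 1.85 in KO lymphoma mice and Foxp3 at -4.79 in KO control, -4.70 in WT lymphoma and -3.59 in KO lymphoma mice.

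The fold change of CD8 over CD4 was also compared between WT and KO controls. The difference of differences was called for 8 genes, 0.0605% of those tested, 7 with a positive and 1 with a negative sign. At an unadjusted p of 0.05 the edgeR fit gave 941 genes, or 7.11%. The count of called genes was 23 by DESeq2, 36 by limma voom, 17 with no filter on low counts, 55 in the 12 untreated libraries and 5 without the block. Itgae showed the widest gap: beside its WT values above, KO controls had 9.17, 14.8 and 13.3 CPM in CD8 and 5.34, 6.64 and 5.12 CPM in CD4 libraries, a fold change of 1.11 ± 0.29, and the difference WT minus KO was 3.93 ± 0.48, edgeR adjusted p = 0.00387. Kcna2, a potassium channel, was at 2.14 ± 0.18 in WT and 0.47 ± 0.17 in KO controls, and Ehd1, which recycles endosomes, at 1.63 ± 0.10 and 0.61 ± 0.10. For Ehd1 the CD8 libraries of both genotypes were close in level and the CD4 libraries were not: CD8 means were 89.5 CPM in WT and 89.2 CPM in KO controls, and CD4 means were 28.9 CPM in WT and 58.8 CPM in KO controls. Ncf1, a subunit of the phagocyte oxidase, was at 1.42 ± 0.18 in WT and -0.12 ± 0.17 in KO controls. Izumo1r and Rora had less negative fold changes in WT than in KO controls. Izumo1r was at -1.90 ± 0.14 against -3.50 ± 0.15, and Rora at -0.48 ± 0.14 (not passing) against -1.67 ± 0.14. 1700025G04Rik was at -0.37 ± 0.19 in WT (not passing) and 1.24 ± 0.19 in KO controls. Without pool 1 none of the 8 passed, and without pool 2 or pool 3 the count was 4.

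**Figure D5:**
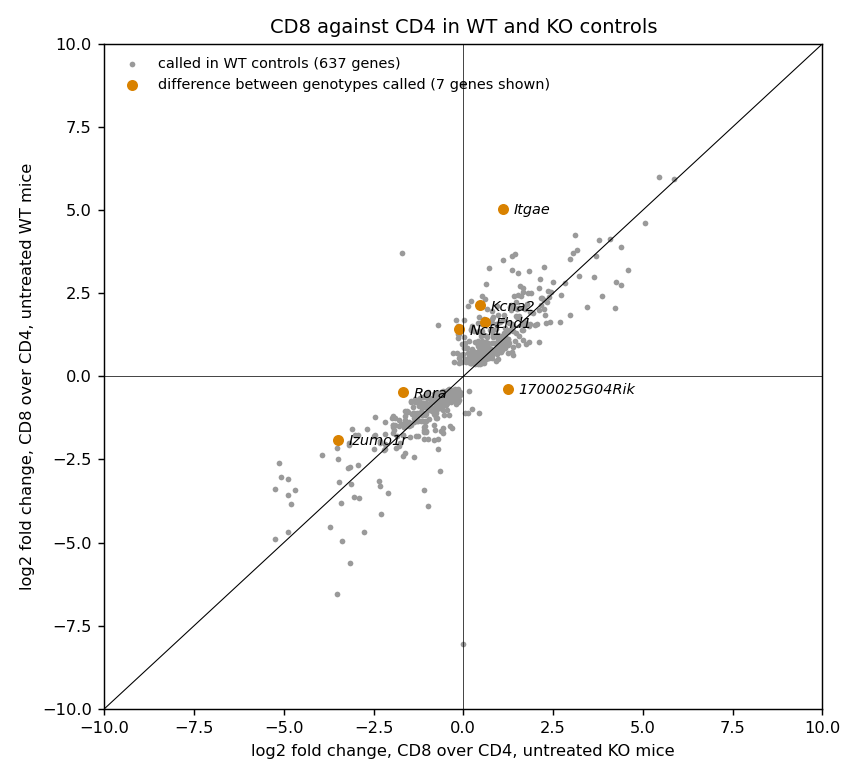
Log2 fold change of CD8 over CD4 in untreated WT mice (vertical axis) against untreated KO mice (horizontal axis) for the 637 genes called in WT controls (grey), with 7 of the 8 genes whose difference between genotypes was called in orange and the diagonal of equal change. Itgae lies farthest from the diagonal among the 7, at 5.04 in WT and 1.11 in KO mice.

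Between WT control and WT lymphoma mice the difference of differences was called for 0 of the 13232 genes in the edgeR fit, 0 in DESeq2 and 0 in limma voom. At an unadjusted p of 0.05 the edgeR fit gave 365 genes, or 2.76%, where 5% would pass with no difference. The smallest p-values there belonged to Eng, Ier3, Asb2, Ehd1 and Myb. Eng was at 3.62 ± 0.34 in WT control and 1.29 in WT lymphoma mice, and Ier3 at 2.11 ± 0.25 and 0.53, neither difference passing the adjustment. Asb2, a ubiquitin ligase subunit, was at -0.95 ± 0.16 and -1.83e-03, and Myb at 0.59 ± 0.11 and -0.05. These genes are given as values, and a p that missed the threshold does not show that the groups were alike.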

How the data were processed

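The table deposited by the authors gives an expected count for every mouse gene symbol in each library. The submitters' processing notes list Salmon 0.11.3, without saying how values were summed to genes. Those notes also name the human build GRCh38, from which no position here is taken; positions are from GENCODE M21 on GRCm38. The kit primes at the 3′ end of polyadenylated RNA, per the labels' protocols. All values but 2 were whole numbers. Those 2 held the letter f, so 2 of 34113 genes were dropped.

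Genes were kept with filterByExpr (minimum count 10, minimum total 15; 13232 genes), scaled by the trimmed mean of M values and tested with edgeR 4.0.16 (robust quasi-likelihood, R 4.3.3) over all 24 libraries, with 12 mouse pools as a block, 1 CD8 minus CD4 term per group, 8 residual degrees of freedom and Benjamini-Hochberg adjustment at 0.05. CPM use the same scaling. Both libraries of a pool carry the same mouse identifiers in the labels, and their residuals correlated at 0.341, 0.34 and 0.369 in pools 1, 2 and 3.

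The comparison, 29 gene lists and their members were chosen with earlier results of these data known. Some genes stand in several lists, among them Nkg7, Eomes, Ccr9, Itgae, Crtam and Cd40lg, so the list counts are not separate findings. Genes named were Cd8a, Cd8b1, Cd4 and Zbtb7b, then the 15 largest rises and 15 largest falls that passed, did not overlap and averaged at least 5 CPM, without receptor segments, predicted genes and other cell type markers, then up to 6 called members of each list with the smallest p, or 3 of the highest level where none was called, and the 5 smallest p of each difference between groups. A few genes that this rule names are not reported here. List members that did not pass are given as examples chosen after their values were seen. On simulated data for CD8 against CD4 in WT controls (13125 genes) the test recovered 49 of 100 genes changed by 2-fold. It recovered 87 of 100 changed by 4-fold, and 3 of all 139 calls were false. The changed genes were drawn from those above a minimum mean count, so these rates do not cover genes of few counts. Alternatives were DESeq2 1.42.0, voom with weighted samples (limma 3.58.1), other scalings and filters, fewer libraries, no block, each pool left out, and leaving out 387 immunoglobulin genes and 113 markers of other cell types.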

Additional observations from a re-analysis of the deposited data

Results flagged for a closer look

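The difference between CD8 and CD4 differed between WT and KO controls, by a test of the difference itself, for 8 genes, of which 7 are given here. The log2 difference WT minus KO was 3.93 for Itgae, 1.68 for Kcna2, 1.60 for Izumo1r, 1.53 for Ncf1, 1.20 for Rora, 1.03 for Ehd1 and -1.61 for 1700025G04Rik. Their edgeR adjusted p ran from 0.00387 to 0.0449. Groups of 3 libraries were not searched for outlying libraries.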

How the results depend on the processing

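The count of 637 genes stayed within 1.5 times under the other scalings and filters, DESeq2 (621), limma voom (929), the 12 untreated libraries alone (743), the 6 WT control libraries with the block (832) and without other cell type genes (646). Without the replicate block it was 460, of which 440 were among the 637, and the 6 libraries alone without the block gave 391. Leaving out a pool gave 280 to 385. Of the 637, 614 to 637 had a value under each setting, and none of those changed sign except Fam177a without pool 1, where it has no count left. Among the lists, the rises of transcription factors numbered 10 by limma voom and 1 in the 6 libraries without the block, and the falls of interferon-stimulated genes 1 without the block. The 8 genes whose difference between WT and KO controls was called became 17 with no filter on low counts, 23 by DESeq2, 36 by limma voom, 55 in the 12 untreated libraries, 5 without the block and 0 to 4 with a pool left out, and the cause was not tested. The difference between WT control and WT lymphoma mice stayed at 0 under each setting run. With 3 pools, changes near 2-fold were often missed in the simulated data. Changes in genes of few counts may be missed as well, which was not simulated. The p-values rest on how the CD8 minus CD4 difference varied between pools of the same group, over all 12 pools. They do not cover the spread between the mice of a pool. In WT lymphoma mice the 3 pools held 3 mice in all.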

Other observations

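A few calls rested on counts of a single library. Fam177a had 18, 0 and 0 CPM in CD8 libraries, against 0, 0 and 0 CPM in CD4 libraries, and the pseudogene Rpl30-ps9 had 0, 0 and 0 CPM in CD8 libraries, against 0.332, 10.9 and 0 CPM in CD4 libraries, and both were called although the groups overlapped. Fam177a has no count left without pool 1, and Rpl30-ps9 lost the call without pool 2. They were noticed after their values were seen. Of 22 tested T cell receptor segments 1 was called, Trav14d-3-dv8, with 0.302, 0.357 and 0 CPM in CD8 libraries, against 1.77, 4.77 and 0.747 CPM in CD4 libraries (-3.41 ± 0.73). Traj18, the joining segment used by invariant natural killer T cells, had 395, 209.6 and 216 CPM in CD8 libraries, against 323, 446 and 336 CPM in CD4 libraries (-0.48 ± 0.35) and did not pass. Of the 637 genes called, 21 were predicted genes, which were left unnamed except for the list member 5830411N06Rik.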
